A study of Mus musculus with 24 samples.

Results

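The interferon-stimulated effector genes described here are 40 genes whose products block viruses, sense foreign nucleic acids or modify proteins after an interferon signal. They were listed by symbol and had been selected on measured values: their level in KO2 cells against WT and KO1 cells, and how the transcripts lasted under the drug. Which of the 24 libraries entered that choice is not recorded. For the members, every difference of KO2 from another genotype and every course under the drug, in any genotype, is therefore given as a description. No p is printed for these, and counts of called members there describe the list and do not test it. This holds for KO1 against WT as well, since libraries of both may have entered the choice. All 40 symbols matched 1 gene identifier each, of 55414 in the count tables, and 37 of the 40 passed the filter on low counts. Cmpk2 had 0 counts in all 24 libraries, Ifih1 had 4 counts over all of them and Ifit3b had 41, so these 3 genes were filtered out of the fit. Rtp4, Ifi44, Rsad2, Zbp1, Ifi203 and Apol9b passed only through the KO2 libraries, where they are high, which leaves 31 members that would pass in WT and KO1 alone.

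The cells were 32D, a mouse bone marrow line that depends on interleukin-3, and polyadenylated RNA was sequenced. There were 3 genotypes: wild type (WT), and KO1 and KO2, both titled Nat10+/- and tagged as deficient in Nat10, the enzyme that writes the RNA mark N4-acetylcytidine. The series asked how Nat10 bears on the lifetime of mRNAs. Cells were collected before actinomycin D (0 h) and after 3, 6 and 9 h in it at 0.05 µg/ml, and each of the 12 groups has 2 libraries. All cells, WT included, grew in 10% serum with IL-3 at 10 ng/ml. The sources used here do not name KO1 and KO2 as clones in words or say how the alleles were made; each is treated as 1 line, so a difference of KO2 from both others is a difference of 1 line. The replicates are labelled biological, but separate cultures are not stated, so the spread behind each p-value is that between libraries and may be partly technical. Actinomycin D blocks transcription, and at low doses it acts mainly on RNA polymerase I, which makes ribosomal RNA.

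As background, type I interferons bind a receptor whose kinases activate transcription factors, STAT2 among them. STAT2 acts with IRF9 in a complex that binds the interferon-stimulated response element in promoters of genes such as those listed here. Interferon gamma acts through a different promoter element and is the better known inducer of the GBP and IRG guanosine triphosphatases. In most cells at rest these genes are low, and negative regulators such as USP18 damp the pathway again.

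Each library held between 15361601 and 17338939 gene counts. Levels are CPM, gene counts scaled to library size on the TMM scale, which corrects for composition, and levels compared between genes are divided by gene length (RPKM). Nat10 itself, the targeted gene, had a mean of 112 CPM in WT at 0 h, with 103 for KO1 and 97.1 for KO2. Its difference from WT on the log2 scale was −0.12 for KO1 (SE 0.05, adjusted p = 0.0486), while that of KO2 was −0.21 (SE 0.05, adjusted p = 0.000291). Counts of the ERCC spike-in RNA, which the labels say was added in equal amounts, ran from 120 to 257 in WT libraries, from 3742 to 5780 in KO1 and from 5339 to 13774 in KO2. The line's IL-3 receptor genes Csf2rb, Csf2rb2 and Il3ra, and Gata2, Myb, Spi1 and Ptprc, were expressed, while Kit, Cd34, Mpo and Elane were at or near 0. The cell type label names lymphoblastocytes. Of 12 lymphoid markers, 7 were at 0 in WT at 0 h, Cd3e, Cd4, Cd8a and Ms4a1 among them, and the list summed to between 22.33 and 24.08 CPM for WT, between 8.023 and 12.59 for KO1 and between 8.966 and 10.63 for KO2. The 10 stromal markers summed to between 11.76 and 14.79 CPM for WT, between 1.325 and 2.194 for KO1 and between 1.37 and 1.375 for KO2. The 14 macrophage and monocyte markers summed at 0 h to between 266.8 and 271.6 CPM for WT, between 283.4 and 290.8 for KO1 and between 222.3 and 238.5 for KO2, with C1qa, C1qb, C1qc, Marco, Mrc1 and Ly6c2 among those at 0. The 12 dendritic cell markers summed to between 100.4 and 100.8 CPM for WT, between 108.1 and 110.3 for KO1 and between 125.3 and 127.2 for KO2. Most of that was Tcf4, and the plasmacytoid marker Siglech was at 0. The part of these marker differences in the results was not tested. In these bulk samples, fewer expressing cells and less RNA per cell cannot be told apart.

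The promoters are shown first because a short sequence was shared by most of the members that could be looked up. RefSeq promoter windows on GRCm38.p6, from 250 bases before to 50 after the start site, were given for 31 of the 40 genes. Rtp4, Parp14, Ifi27, Mx1, Mx2, Oas2, Dhx58, Parp9 and Zbp1 had no entry. The core of the interferon-stimulated response element, GAAA, any NN, then GAAA (TTTC, NN, TTTC when read on the other strand), searched on both strands with overlapping matches counted, was found in 18 of the 31 genes (58.1%), against 1079 of all 27025 genes in the table (3.99%). Counted by window, it was in 20 of 38 (52.6%) against 3.44% of 32851. The gamma-activated element, through which interferon gamma acts, searched as TTCNNNGAA, was found in 6 of the 31 genes (19.4%), against 9.55% of all genes. The stretches below lie upstream of the start site, are written 5′ to 3′ on the gene's own strand and carry the matches in capitals. They are the matched members with the highest level per length in KO2 at 0 h from each family, with the Ifit3 and Ifit3b pair shown to compare near-identical copies.
Ifit1, chr19:34640770-34640828, plus strand: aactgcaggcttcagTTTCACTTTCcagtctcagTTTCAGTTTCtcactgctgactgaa
Ifit3, chr19:34583358-34583431, plus strand: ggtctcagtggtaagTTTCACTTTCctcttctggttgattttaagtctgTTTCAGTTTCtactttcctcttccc
Ifit3b, chr19:34607754-34607827, plus strand: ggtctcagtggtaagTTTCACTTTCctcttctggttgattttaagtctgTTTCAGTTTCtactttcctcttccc
Oas1a, chr5:120907526-120907560, minus strand: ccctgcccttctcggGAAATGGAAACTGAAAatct
Oas3, chr5:120777710-120777749, minus strand: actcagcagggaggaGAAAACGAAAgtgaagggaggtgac
Gbp7, chr3:142530268-142530307, plus strand: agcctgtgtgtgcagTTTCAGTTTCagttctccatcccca
Irgm1, chr11:48871421-48871465, minus strand: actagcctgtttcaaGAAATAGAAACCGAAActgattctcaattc
Bst2, chr8:71537572-71537617, minus strand: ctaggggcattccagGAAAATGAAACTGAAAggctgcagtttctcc
Isg15, chr4:156200860-156200911, minus strand: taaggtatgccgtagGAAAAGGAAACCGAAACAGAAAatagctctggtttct

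Isg15 carried 3 overlapping matches, and Oas1a, Irgm1 and Bst2 carried pairs whose matches overlap. Ifit1 carried a pair set apart, and Oas3 and Gbp7 carried a single match. The Ifit3 and Ifit3b stretches were identical in 74 of 74 bases, with matches 34 bases apart from start to start. In Ifih1 and Ddx58 the match lay just after the start site, at +32 and +2, and not before it. A match is a description of letters and not a bound site.

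Before the drug, KO2 stood apart from WT and from KO1 in nearly the whole list. Both KO2 libraries lay above both WT libraries for 38 of the 40 genes, and above both KO1 libraries for 38, all but the undetected Ifih1 and Cmpk2. Over all genes tested the same held for 30.2% against WT and 23.3% against KO1. Since these libraries may have entered the choice of the members, the counts describe them and no test is given. The 40 genes together took 0.482% ± 0.0022 (SD, n = 2) of gene counts in KO2, against 0.124% ± 0.0016 in WT and 0.117% ± 0.00021 in KO1. The median fitted log2 difference over the 37 testable members was 3.08 against WT and 2.90 against KO1, beside 0.00 and −0.01 over all genes. Over the 31 members that pass without KO2 the medians were 2.16 and 2.15. The median over 37 stayed at 3.08 against WT and 2.90 against KO1 with members at 0 in the other group set to their lower bounds. The smallest difference from WT was that of Ifit2, at 0.65.

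**Figure D1:**
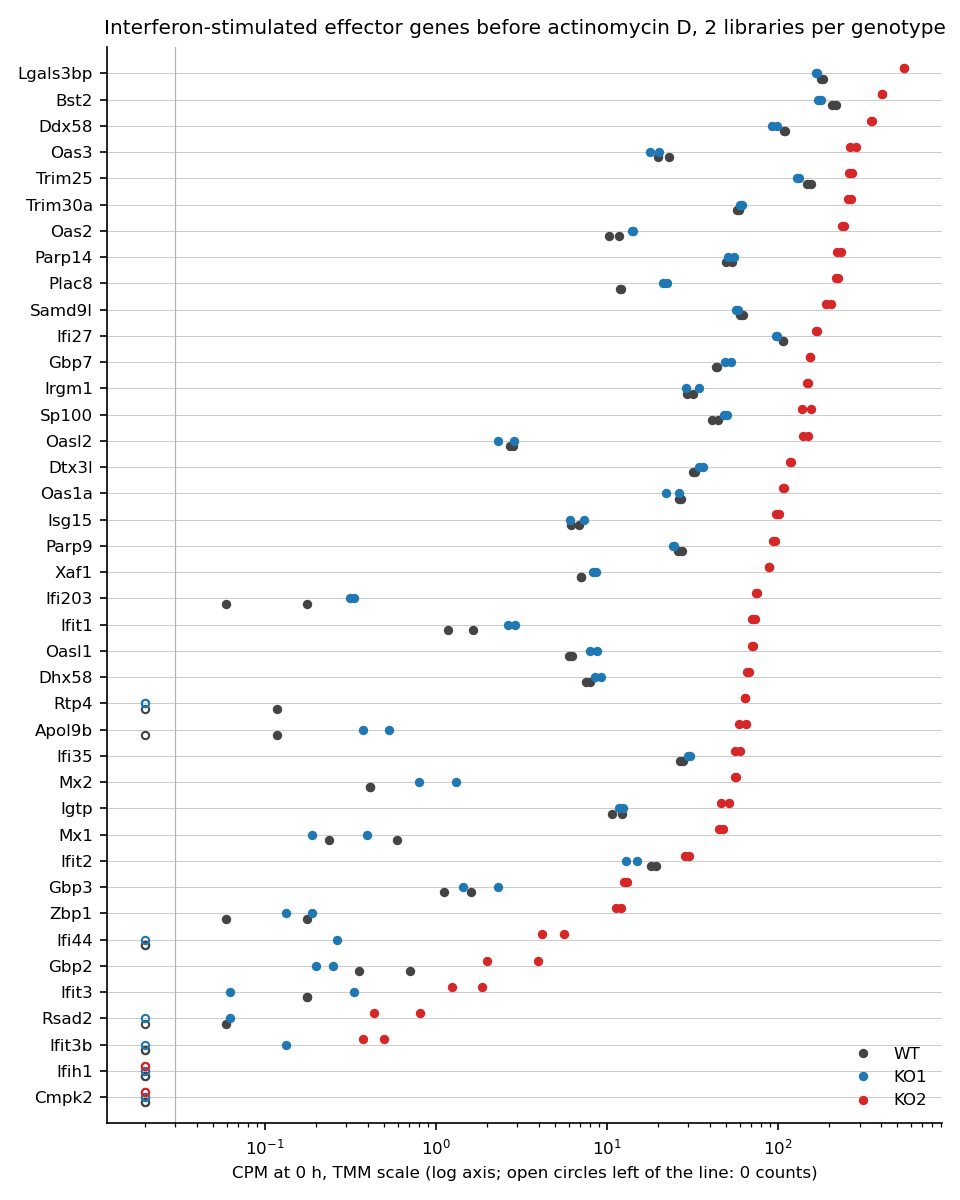
CPM on the TMM scale at 0 h (x axis, logarithmic) for all 40 genes (rows, ordered by the KO2 mean), with 1 point per library and 2 libraries per genotype; open circles left of the line are libraries with 0 counts. KO2 points lie to the right of all others except in Ifih1 and Cmpk2, which were undetected, and the WT and KO1 points lie close together.

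By level per length, KO2 at 0 h was led by Bst2 at 451 RPKM ± 1.7 (SD, n = 2), Lgals3bp at 192 ± 0.322, Isg15 at 142 ± 4.38, Plac8 at 139 ± 2.28 and Ifi27 at 114 ± 0.282. Bst2 is tetherin, which holds budding virus at the cell surface, and Lgals3bp is a secreted glycoprotein that binds galectins. At the other end were Ifit3 at 0.894 RPKM ± 0.250, Ifi44 at 0.799 ± 0.163, Ifit3b at 0.218 ± 0.0435 and Rsad2 at 0.144 ± 0.0615. Rsad2, or viperin, makes a chain-terminating nucleotide, and is a strongly induced gene in many interferon responses, but here it gave at most 13 counts in any library. So the list spanned genes that WT cells already expressed well and genes that were all but silent there.

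Rtp4, Apol9b, Ifi203 and Ifi44 went from near silence to a clear level. Rtp4, a chaperone of membrane receptors, had 2 counts over both WT libraries and 0 over both KO1 libraries, against 2062 over both KO2 libraries. That is at least 666-fold higher than in KO1, with the floor set at 3 counts over the KO1 pair; the ratio to WT was 1090 (95% counting interval 301 to 8990). Ifi203, of the family of DNA-binding PYHIN proteins, had 4 counts in WT and 2395 in KO2, a ratio of 632 (246 to 2320). Apol9b, an apolipoprotein L, had 2 counts in WT and 1992 in KO2, a ratio of 1050 (291 to 8690); 52.3% of its 50-base words also occur in other genes, all of them in Apol9a, so its counts are uncertain. Ifi44 had 0 counts in all 8 WT libraries and 157 over the KO2 pair at 0 h, at least 55.2-fold higher. These intervals cover counting error only.

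The Oas family make or mimic synthetases of the short RNA chains that switch on RNase L, and all 5 members were higher in KO2 at 0 h by a median log2 difference of 3.68 against WT. Oas2 gave 236 and 242 CPM in the KO2 libraries, against 11.8 and 10.3 in WT and 14.2 and 14.0 in KO1. Oasl2, an OAS-like protein with ubiquitin-like domains, gave 141 and 150.4 CPM in KO2, against 2.72 and 2.84 in WT and 2.85 and 2.32 in KO1. Oas3 gave 262 and 287 CPM, against 23.1 and 19.9 in WT and 20.2 and 17.9 in KO1. In each of these genes the WT and KO1 libraries overlapped or lay close, and KO2 lay far above both. Of the 50-base words of Oas1a, 57.6% also occur in Oas1g, so its counts may hold or lose reads of that copy.

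Among the modifiers, Isg15, the ubiquitin-like protein that is joined to other proteins, gave 97.4 and 102 CPM in KO2, against 6.86 and 6.20 in WT and 6.10 and 7.4 in KO1. The RNA sensor Ddx58 (RIG-I) gave 350.2 and 355 CPM in KO2, against 110 and 109 in WT and 92.0 and 98.9 in KO1. Trim25, the ubiquitin ligase that acts with RIG-I, differed least of the sensors, at 270.2 and 262 CPM in KO2 against 155 and 147 in WT. The dynamin-like antiviral GTPase Mx1 gave 45.4 and 47.7 CPM in KO2, against 0.237 and 0.591 in WT and 0.398 and 0.188 in KO1. Ifit1, which binds viral RNA that lacks the host cap marks, gave 73.5 and 70.1 CPM in KO2 against 1.66 and 1.18 in WT.

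The libraries taken during actinomycin D come from the same KO2 line and may have entered the choice of the list, so they show how long the difference lasted and not whether it would recur in another line. A gene counts as called when its adjusted p (Benjamini-Hochberg, over 16167 genes) is under 0.05. For the members, the calls counted here are a description and no test, since these values may have chosen them. Of the 31 members that pass the filter without KO2, 27 were called higher in KO2 than in WT at 3 h and 0 lower (21.1% and 17.6% of all genes), with a median log2 difference of 1.29. At 6 h 29 were higher and 0 lower (17.5% and 16.8%), median 1.28. At 9 h 30 were higher and 0 lower (18.7% and 16.5%), median 1.33. With the 6 that passed only through KO2, the counts were 32, 34 and 36 of 37. No tested member had a negative fitted value against WT at these times. The median over all genes was 0.01, −0.01 and −0.01 at these times. The 5 members not called at 3 h were Ifit2 (0.14, SE 0.14), Ifit3 (0.86, SE 0.59), Ifi27 (0.03, SE 0.03), Rsad2 (3.27, SE 2.50) and Gbp2 (0.88, SE 0.42). At 9 h Ifit2 alone was not called, at 0.23 (SE 0.13). The calls of Ifit3 and Rsad2 at 9 h were weak: that of Ifit3 was lost with DESeq2, and Rsad2 rested on 11 counts in the first KO2 library and 1 in the second.

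Against KO1, which is titled with the same genotype, 30 of the 31 members were called higher in KO2 at 3 h and 0 lower, beside 5.61% and 6.34% of all genes. The count was also 30 and 0 at 6 h (5.59% and 7.82%) and at 9 h (4.89% and 7.54%), and over 37 members it was 35, 35 and 36. Rsad2 was the 1 member with a negative value, −0.49 (SE 1.54) at 3 h and −0.08 (SE 2.06) at 6 h. The medians over 31 were 1.43, 1.12 and 1.11 on the log2 scale, beside 0.00, 0.00 and −0.01 over all genes. These comparisons share the KO2 libraries with those against WT, and their calls are likewise a description. They also depend on the scale. With the spike-in totals as the scale, 24 of the 37 members were higher and 4 lower at 3 h, 17 and 12 at 6 h, and 15 and 19 at 9 h. The shares of all genes called on that scale are not given, so nothing is read from the size of these counts. On that scale the median of all genes itself moved by −0.97, −1.14 and −1.66, and the medians of the 37 were 0.50, 0.08 and −0.52, above the median of all genes at each time. No spike-in value can be given against WT, whose libraries held too few spike-in counts.

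By role, all 5 Oas genes were called higher in KO2 at 3, 6 and 9 h against both WT and KO1; on the spike-in scale Oas1a turned to −0.52 against KO1 at 9 h. Oasl2 was higher than in WT by 3.38 at 3 h (SE 0.15) and by 4.25 at 9 h (SE 0.12). All genes of the ISG15, ligase and PARP group were likewise called higher at each time. On the spike-in scale Parp9, Parp14, Dtx3l and Trim30a turned to −0.82, −1.03, −0.91 and −0.55 against KO1 at 9 h. Parp9, Parp14 and Dtx3l were already lower on that scale at 6 h, at −0.266, −0.325 and −0.275, and Dtx3l at 3 h, at −0.271. Isg15 itself was higher than in WT by 2.50 at 3 h (SE 0.10) and 3.22 at 9 h (SE 0.08). Parp9 and Dtx3l, partners in adding ADP-ribose to ubiquitin, lie head to head on chromosome 16 (GRCm39) and share 458 exonic bases on opposite strands; the counting did not use strand, so reads there cannot be told apart. They were higher than in WT by 1.29 (SE 0.08) and 0.70 (SE 0.06) at 3 h. All 4 testable sensors, Ddx58, Dhx58, Zbp1 and Trim25, were called higher at each time in both comparisons. On the spike-in scale Trim25 was lower in KO2 than in KO1 at all 3 times, by −0.59, −0.47 and −1.11, and Ddx58 gave −0.06 (SE 0.06, not called) at 6 h and −0.80 at 9 h.

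The Ifit genes differed among themselves. Ifit1 was higher than in WT by 3.24 at 3 h (SE 0.19) and by 4.85 at 9 h (SE 0.16). Ifit2, which lies in the same cluster on chromosome 19, was not called against WT at 3, 6 or 9 h, but was higher than in KO1 by 0.66 at 3 h (SE 0.15). With spike-in totals as the scale, Ifit2 against KO1 turned to −0.307 (SE 0.152, not called) at 3 h. It gave −0.574 (SE 0.146) at 6 h and −1.024 (SE 0.145) at 9 h. The KO2 libraries gave 9.94 and 12.8 CPM of Ifit2 at 3 h, overlapping the 10.7 and 10.1 of WT and lying above the 6.35 and 8.06 of KO1. Ifit3 had 50 counts in KO2 at 0 h and 51.2% of its 50-base words occur in Ifit3b, so little can be said of it.

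Between KO1 and WT, where the contrast does not use KO2, calls at 0 h went in both directions. The WT and KO1 libraries may still have entered the choice of the members, as those KO2 was compared with, so these calls are a description and no test. There were 8 members higher and 6 lower, beside 15% and 12.3% of all genes, with a median log2 difference of 0.07 against 0.01 over all genes. Over the 31 members that pass without KO2 it was 7 and 6, with a median of 0.05. Higher were Ifit1, Mx2, Oas2, Oasl1, Gbp7, Apol9b, Plac8 and Sp100. Apol9b, which passed the filter only through KO2, rested on 14 counts in KO1 and 2 in WT. Lower were Ifit2, Ifi27, Ddx58, Bst2, Trim25 and Lgals3bp. Of these, Plac8, a small cysteine-rich protein of myeloid cells, differed by 0.87 (SE 0.09): its WT libraries gave 11.9 and 12.1 CPM, and its KO1 libraries 21.3 and 22.5. Bst2 differed by −0.29 (SE 0.03). The count of 8 rested in part on single libraries: it was 4 without WT replicate 1 and 4 without WT replicate 2 at 0 h.

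At 3 h, again as a description, 6 members were called higher in KO1 than in WT and 10 lower, beside 20.1% and 16.7% of all genes. The count of higher members was 3 without WT replicate 2 at 3 h. At 6 h, 13 were higher and 6 lower, beside 18.4% and 17.4%; the 13 became 8 without WT replicate 2, and the 6 became 3 without KO1 replicate 2. At 9 h, 21 were higher and 3 lower, beside 19.3% and 15.1%, and the median was 0.30 against 0.01 over all genes. Over the 31 members that pass without KO2, higher and lower were 6 and 10 at 3 h, 13 and 6 at 6 h, and 20 and 3 at 9 h. The 3 lower at 9 h were Ifit2, Bst2 and Lgals3bp. Among the 21, Ifi35 differed by 0.69 (SE 0.06), Oas2 by 0.61 (SE 0.07) and Igtp by 0.60 (SE 0.04). Ifi35 joins with NMI in a complex formed after interferon, and 16.8% of its exonic bases overlap a gene on the other strand. All 3 values were below those of KO2 against WT at 9 h, which were 0.96, 3.40 and 1.74. KO2 against KO1 at 9 h stood at 0.27, 2.79 and 1.14 for these genes. On the spike-in scale the same values were −1.39, 1.13 and −0.53, so the direction for Ifi35 and Igtp depends on the scale.

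**Figure D2:**
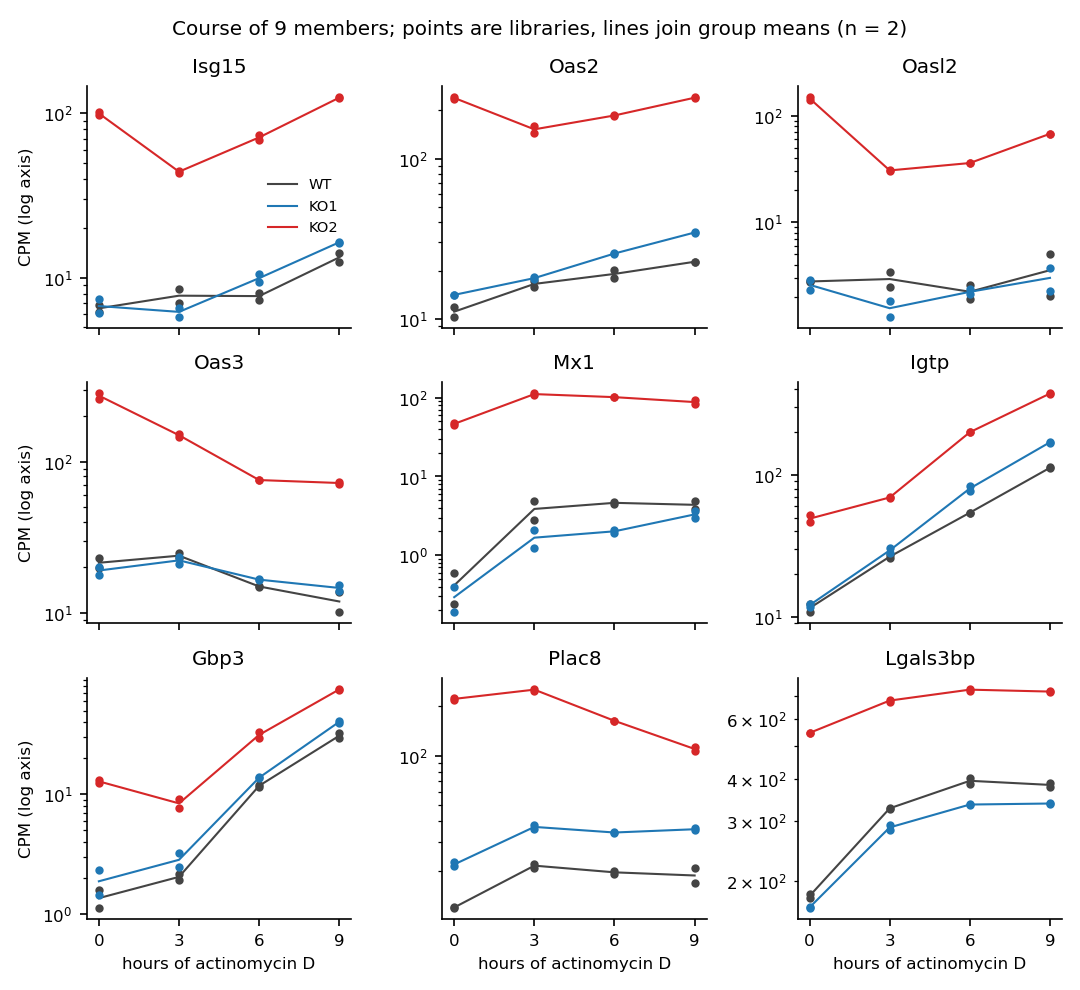
CPM (y axes, logarithmic, each panel its own range) of 9 members over hours of actinomycin D (x axes) in WT, KO1 and KO2, with 1 point per library and lines through the means of 2. KO2 lies above WT and KO1 at every time in all 9. In KO2 Isg15 and Oasl2 dip at 3 h, Oas3 falls from the start until 6 h, and Plac8 declines after 3 h. Igtp and Gbp3 climb in all 3 genotypes, Gbp3 in KO2 only after a dip at 3 h.

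During the drug the members did not share a single course. In KO2 most of them stood lower at 3 h than at 0 h relative to other transcripts. The median of the 36 members with 40 or more counts at 0 h was 54.0% of the 0 h CPM at 3 h, 66.5% at 6 h and 85.8% at 9 h. At 3 h 28 of the 36 were below their 0 h level and 16 were below 50% of it. Over 37 members the median log2 difference of 3 h from 0 h was −0.91, beside 0.11 over all genes. In WT and KO1, where 27 members had 40 or more counts at 0 h, the medians at 3 h were 120% and 117%. Against 0 h, 13 members were called higher and 7 lower at 3 h in WT, beside 38.6% and 33.5% of all genes. In KO1 15 were called higher and 10 lower, beside 37.9% and 33.4%. The libraries of WT and KO1 may also have entered the choice of the members, so nothing is read from these counts. The difference of KO2 from WT was smaller at 3 h than at 0 h for all 37 members, by a median of 1.03 on the log2 scale; against KO1 this held for 35 of 37.

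The lowest level at 3 h relative to 0 h in KO2 was that of Oasl2, at 21.1%, and next came Ifit1, Oasl1, Rtp4 and Mx2. Oasl2 went from 141 and 150.4 CPM to 31.2 and 30.2 at 3 h, and stood at 67.7 and 67.9 at 9 h. Ifit1 went from 73.5 and 70.1 CPM to 16.2 and 15.8, and stood at 38.5 and 38.9 at 9 h. Rtp4 went from 64.4 and 64.3 CPM to 18.03 and 18.2, and stood at 52.8 and 49.3 at 9 h. In all 3 the 3 h libraries were the low point on the CPM scale and the 9 h libraries lay between, without overlap. Per spike-in count, the levels at 3, 6 and 9 h were 13.2%, 11.2% and 21.2% of 0 h for Oasl2. They were 13.9%, 13.7% and 24.6% for Ifit1, and 17.6%, 21.3% and 36.2% for Rtp4. Isg15 stood below its start at 3 h and above it at 9 h, with 97.4 and 102 CPM, then 44.6 and 43.5, then 123 and 125 at 9 h; per spike-in count its 9 h level was 56.9% of the start.

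Other members went down and stayed down. Oas3 went from 262 and 287 CPM in KO2 to 153 and 147 after 3 h, 76.0 and 75.6 after 6 h and finally 71.8 and 73.1 after 9 h, which is 26.4% ± 0.34 (SD, n = 2) of its start. Ifi44 kept 12.3% ± 6.4, from few counts. Ddx58 kept 44.4% ± 0.12, after 151 and 148 CPM at 3 h. On the CPM scale Plac8 held on before it declined. It had 218 and 223 CPM before the drug, 247 and 255 after 3 h, 163 and 162 after 6 h and 107 and 112 after 9 h. Per spike-in count it stood below its start from 3 h, at 71.2%, 33.3% and 22.7% at 3, 6 and 9 h. On that scale the 9 h levels of Oas3, Ifi44 and Ddx58 were 12%, 5.59% and 20.3% of 0 h. Trim30a, a TRIM protein that restrains inflammatory signalling, stood at 110 and 108 CPM at 3 h and 107 and 111 at 9 h, after 266 and 257 at 0 h.

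On the CPM scale Mx1, Bst2 and Lgals3bp went the other way. Mx1 stood at 45.4 and 47.7 CPM in KO2 at 0 h, 107 and 116 at 3 h and 83.1 and 93.1 at 9 h. In WT, where Mx1 had 14 counts over both libraries at 0 h, its 3 h level was higher by 3.21 on the log2 scale (SE 0.34), and in KO1, from 9 counts, by 2.50 (SE 0.47). Bst2 was higher at 3 h than at 0 h by 1.06 in WT (SE 0.03) and 0.85 in KO1 cells (SE 0.03), and in KO2 it stood at 406 and 408 CPM at 0 h and 631 and 668 at 3 h. Lgals3bp was higher by 0.85 in WT (SE 0.03) and stood in KO2 at 547 and 545 CPM at 0 h and 675 and 684 at 3 h. The direction in KO2 depends on the scale: per spike-in count, Bst2 stood at 100%, 72.6% and 63.8% of its 0 h level at 3, 6 and 9 h, Lgals3bp at 77.9%, 60.7% and 60.5%, and Mx1 at 150%, 98.9% and 86.5%.

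**Figure D3:**
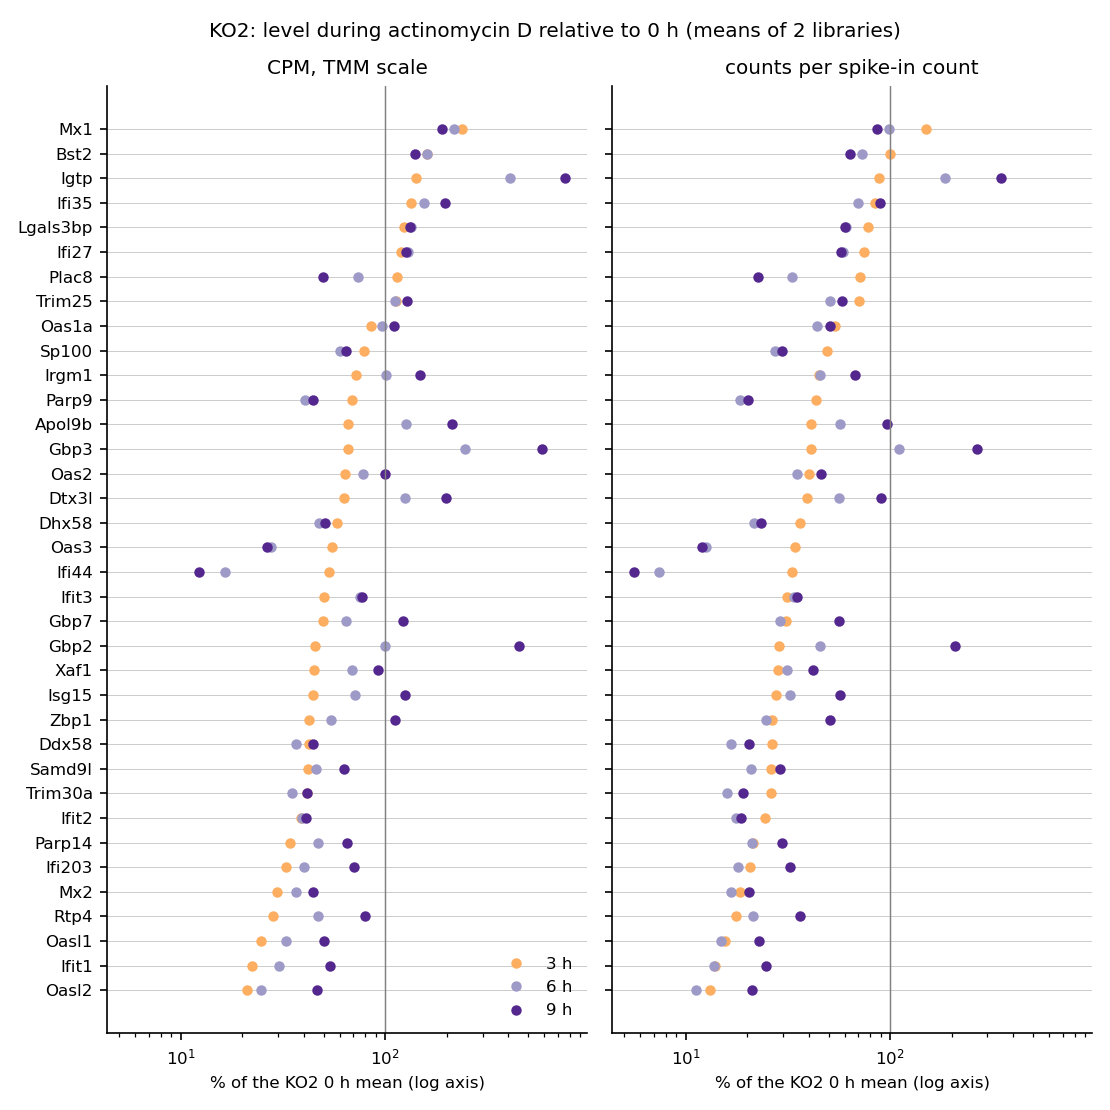
Level in KO2 at 3, 6 and 9 h as a percentage of the 0 h mean (x axes, logarithmic), for 36 members with 40 or more counts at 0 h (rows, ordered by the 3 h value), as CPM on the left and per spike-in count on the right; points are ratios of means of 2 libraries and the line marks 100%. On the left 28 of 36 members lie below 100% at 3 h and 19 at 9 h, and on the right 34 and 33; Igtp, Gbp3 and Gbp2 lie above 100% at 9 h in both.

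The scale matters most for the later times. Spike-in counts, as CPM of gene counts, were 333 ± 13 (SD, n = 2) in the KO2 libraries before the drug, and 520 ± 19, 787 ± 10 and 834 ± 14 after 3, 6 and 9 h of it. Per spike-in count, the median member in KO2 stood at 33.6%, 30.1% and 39.2% of its 0 h level at 3, 6 and 9 h, and 34, 34 and 33 of the 36 were below 100%. The 3 members above it at 9 h were Igtp at 349%, Gbp3 at 268% and Gbp2 at 209%. On the CPM scale the same genes were at 762%, 586% and 454%. At a given time the 2 scales differ by 1 factor for all genes, so the order of the members is the same on both.

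After 3 h much of the list stood higher again relative to other transcripts. From 3 h to 9 h, 24 of 37 members were called higher and 8 lower in KO2, beside 32.5% and 33.7% of all genes, as a description; among the 31 that pass without KO2 it was 20 and 7. In KO1 23 rose and 3 fell, beside 32.1% and 33.0%, and in WT 15 rose and 6 fell, beside 34.2% and 31.6%. Among the 31 it was 21 and 3 in KO1, and 15 and 6 in WT. These counts are a description too, since the courses may have entered the choice of the members. The medians were 0.62 in KO2, 0.66 in KO1 and 0.16 in WT, beside 0.01, 0.02 and 0.07 over all genes. On the spike-in scale 18 were higher and 14 lower in KO2, where the median of all genes moved by −0.45, and 29 rose and 2 fell in KO1, where it moved by 0.24. Shares of all genes called on that scale are not given beside these counts.

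The GBP and IRG group of GTPases was uniform: all 5 members rose from 3 h to 9 h in WT and KO1 and were called higher at 9 h in KO2. Gbp3 rose by 3.82 in KO1 (SE 0.13) and 3.91 in WT (SE 0.15), and the KO2 value was 3.16 (SE 0.10). Igtp (Irgm3) rose by 2.53 in KO1 (SE 0.05) and 2.08 in WT (SE 0.06), and the KO2 value was 2.43 (SE 0.04). Igtp went from 12.2 and 10.8 CPM in WT at 0 h to 113 and 111 at 9 h, from 11.8 and 12.4 to 169 and 171 in KO1, and from 51.8 and 46.5 to 370 and 379 in KO2. The WT libraries at 9 h thus lay above the KO2 libraries at 0 h. In KO2 on the spike-in scale the same 5 genes were higher too, from 0.58 for Irgm1 (SE 0.05) to 2.86 for Gbp2 (SE 0.24). Of the 50-base words of Igtp, 11.8% occur in Irgm2.

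Dtx3l rose with them, by 1.6 in KO1 (SE 0.05) and 1.34 in WT (SE 0.05), and gave 1.66 (SE 0.04) in KO2. Its neighbour Parp9 fell by 0.36 in WT (SE 0.09) and gave −0.65 (SE 0.07) in KO2. In KO1 it was not called, at −0.02 (SE 0.09). On the spike-in scale the KO1 value was 0.22 (SE 0.09) and was called. Oas3 fell by 0.61 in KO1 (SE 0.10) and 1.01 in WT (SE 0.10), and gave −1.05 (SE 0.05) in KO2. Oas2, next to Oas3 on chromosome 5, rose in WT and KO1 and gave 0.65 (SE 0.04) in KO2. These neighbours of 1 family thus took opposite courses.

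**Figure D4:**
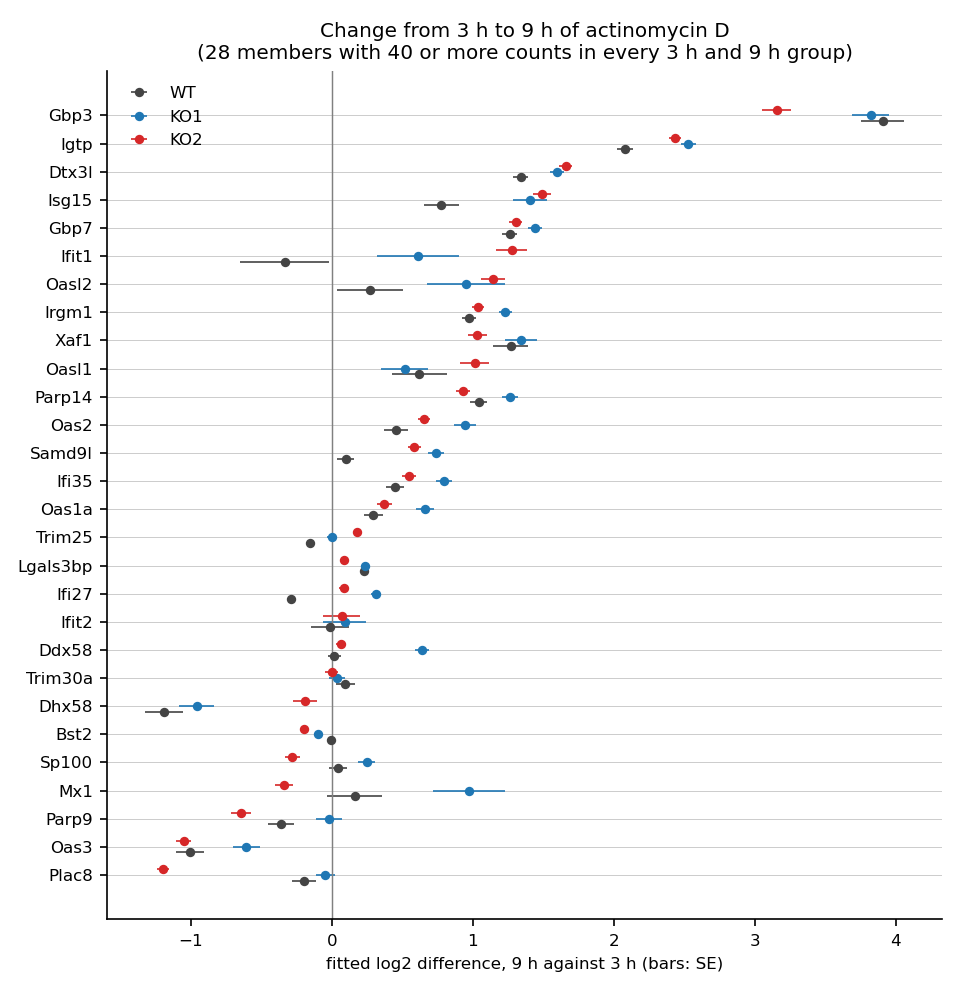
Fitted log2 difference of 9 h from 3 h (x axis, bars are standard errors) in WT, KO1 and KO2 for the 28 members with 40 or more counts in every 3 h and 9 h group (rows, ordered by KO2). Of these 28, Gbp3 and Igtp lie farthest right in all 3 genotypes, Oas3 lies left of 0 in all 3, and Plac8, Mx1 and Ddx58 show KO2 to the left of KO1.

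How the late course of KO2 compared with the others is described by the difference between genotypes of the change from 3 h to 9 h, with calls at the same threshold. Against WT, 9 members had a more positive change in KO2 and 6 a more negative one, beside 9.99% and 10.8% of all genes. Against KO1, 2 were more positive and 12 more negative, beside 1.03% and 2.0%. Both comparisons use the same KO2 libraries. Plac8 had a more negative change in KO2 against both, by 0.997 against WT (SE 0.10) and 1.15 against KO1 (SE 0.08). Dhx58, the RIG-I-like regulator LGP2, had a more positive one against both, by 0.997 against WT (SE 0.16) and 0.77 against KO1 (SE 0.15); on the spike-in scale the value against KO1 was 0.07 (SE 0.16) and no longer called. Ddx58 had a more negative change against KO1, at −0.57 (SE 0.06), and gave 0.05 (SE 0.06) against WT. Isg15 had a more positive change against WT, at 0.72 (SE 0.14), and gave 0.09 (SE 0.15) against KO1, or −0.60 (SE 0.15) on the spike-in scale. The count of 12 became 7 without KO1 replicate 2 at 3 h, and 27 on the spike-in scale. There the median difference was −0.89 over the members and −0.71 over all genes, whose called share is not given. The count of 2 ran from 0 to 4: it was 1 without KO1 replicate 2 at 3 h, 4 without KO1 replicate 1 at 9 h and 0 without KO1 replicate 2 at 9 h.

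The interferons themselves were all but absent. The 21 type I, II and III interferon genes looked for summed to at most 0.853 CPM in any library, and in KO2 at 0 h to 0.311 and 0.375 CPM. Only 1 of them, Ifnab, held enough counts to be tested.

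In the signalling core, Usp18 and Irf7 stood far higher in KO2. Usp18, which removes ISG15 and damps the receptor, had 11.97 CPM ± 0.137 (SD, n = 2) in WT libraries at 0 h, 15.4 ± 1.01 in KO1 libraries and 216 ± 0.194 in KO2 libraries. Irf7, the factor that amplifies interferon genes, stood at 11.5 ± 0.095, 14.2 ± 1.01 and 145 ± 5.16 CPM. At 3 h Irf7 was higher in KO2 than in WT by 2.68 (SE 0.06, adjusted p = 9.64e-63) and Usp18 by 2.38 (SE 0.08, adjusted p = 4.02e-50). Irf9 was higher by 1.02 (SE 0.06, adjusted p = 3.39e-31) and Stat2 by 0.39 (SE 0.05, adjusted p = 2.72e-09). Of the 31 listed genes of interferon signalling and sensing, 27 were tested, and 14 were higher and 3 lower in KO2 than in WT at 3 h, beside 21.1% and 17.6% of all genes, with a median of 0.23 and with Tmem173 (−0.61) and Cgas (−0.29) the lowest called. At 9 h 14 were higher and 1 lower, beside 18.7% and 16.5%. At 3 h 7 were higher and 0 lower in KO2 than in KO1, beside 5.61% and 6.34%, with a median of 0.10. No spike-in values are given for this list, and on that scale the median of all genes moved by −0.97. In KO1 against WT 8 were higher and 3 lower at 3 h, beside 20.1% and 16.7%. At 6 h it was 14 and 2 in KO1 (18.4% and 17.4%) and 13 and 2 in KO2 (17.5% and 16.8%). KO1 against WT at 9 h gave 13 and 3, beside 19.3% and 15.1%. The 9 h medians were 0.15 for KO1 and 0.19 for KO2, so the late counts were not particular to KO2.

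A further list of 60 interferon-stimulated genes outside the 40 moved in the same direction by less. Of its 52 testable genes, 42 were higher and 1 lower in KO2 than in WT at 3 h, with a median of 0.52 (21.1% and 17.6% of all genes), and 44 higher and 1 lower at 9 h, with a median of 0.68 (18.7% and 16.5%). Against KO1 36 were higher at 3 h and 41 at 9 h, beside 5.61% and 4.89%, and 0 lower at both times, beside 6.34% and 7.54%. The medians against KO1 were 0.59 and 0.51 on the TMM scale. No spike-in values are given for this list, and on that scale the median of all genes moved by −0.97 and −1.66. The direction against KO1 may therefore depend on the scale. The 2 largest differences called at 3 h, Ifi204 at 6.38 and Gbp6 at 4.76, rested on 19 and 6 counts in KO2. The 1 gene lower was Slfn9, at −0.12 (SE 0.05, adjusted p = 0.0275). In KO1 against WT at 0 h 4 of the 52 were higher and 12 lower, beside 15% and 12.3%. At 3 h it was 10 and 12, beside 20.1% and 16.7%. At 6 h 24 were higher and 8 lower in KO1, beside 18.4% and 17.4%, with a median of 0.17. At 9 h it was 24 and 7, beside 19.3% and 15.1%, with a median of 0.21. KO1 thus shared part of the late difference from WT, by less than KO2.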

How the data were processed

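Counts of read pairs per gene were deposited by the authors, 1 table per library. Per the file headers, they were made with featureCounts 1.6.3 at exon level, summed to genes and ignoring strand, against Ensembl release 105 of GRCm39 with ERCC sequences; the submitters' processing notes also name STAR and DESeq2, whose versions are not given in the sources used here. Gene names came from GENCODE M21. There were 0 rows that named no gene.

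The edgeR 4.0.16 filter filterByExpr (minimum count 10) chose the genes, which were scaled by TMM and tested with the edgeR quasi-likelihood test on all 24 libraries in 12 groups, with Benjamini-Hochberg adjustment over 16167 genes. The procedure was tested on simulated counts. Library pairs differed by more than sampling noise (chi-square per degree of freedom 1.43 to 2.31) and were not merged. Same-numbered libraries did not deviate together (correlations from −0.028 to 0.040 over 66 pairs of groups), so replicate numbers were not used as a block. Spike-ins set an alternative scale where every library held 1000 or more of their counts, which excluded WT. Counting intervals are exact (95%), and a group with 0 counts was given a floor of 3. Other settings were DESeq2 1.42.0, DESeq2 size factors, no filter, only the libraries compared, the replicate block and each library left out. Any of the 40 members could be named; of other lists, Usp18, Stat2, Irf7 and Irf9 (another gene of that rule is not reported here) and up to 2 genes each way with the largest called difference. No p is printed for members, since the libraries of any contrast may have entered their choice, and their calls are a description. The filter run on WT and KO1 libraries alone, which 31 members pass, was added after seeing the data; its counts come from the same fit. The members, lists and tests were chosen with earlier results of these data known.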

Additional observations from a re-analysis of the deposited data

Results flagged for a closer look

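The change from 3 h to 9 h of actinomycin D differed between genotypes in these members, by the edgeR test of the difference itself (log2 values, KO2 minus the other genotype). The course in KO2 may have entered the choice of the members, so the values describe them and are no independent support. Against WT it was more positive in KO2 for Ifit1 (1.61), Dhx58 (0.997), Oasl2 (0.88), Isg15 (0.72), Samd9l (0.49), Ifi27 (0.37), Igtp (0.35), Trim25 (0.33) and Dtx3l (0.32). It was more negative for Mx2 (−1.26), Plac8 (−0.997), Gbp3 (−0.75), Sp100 (−0.32), Bst2 (−0.19) and Lgals3bp (−0.14). Against KO1 it was more positive for Dhx58 (0.77) and Trim25 (0.18). It was more negative for Mx1 (−1.31), Plac8 (−1.15), Gbp3 (−0.67), Parp9 (−0.63), Ddx58 (−0.57), Sp100 (−0.53), Oas3 (−0.45), Parp14 (−0.33), Oas2 (−0.29), Oas1a (−0.29), Ifi27 (−0.23) and Lgals3bp (−0.15). Ifi27 therefore stands between the other genotypes, above WT and below KO1 in its late change. Groups of 2 libraries are too small to look for a single library that stands apart.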

How the results depend on the processing

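The counts of members higher in KO2 than in WT at 3, 6 and 9 h were within 1.5 times the reported ones under every setting run, and so were all counts under the replicate block, for which the number higher in KO2 than in WT at 3 h was 32. Blocking on the replicate number, which pairs no samples here, changed no count by over 1.5 times. On the spike-in scale, members higher in KO2 than in KO1 were 17 at 6 h and 15 at 9 h, those lower at 9 h than at 3 h in KO2 were 14, and those with a late change against KO1 were 0 more positive and 27 more negative. No share of all genes called on that scale is given beside these counts. The late change in KO2 reversed on that scale for Ifit2 (−0.39), Ifi27 (−0.37), Ddx58 (−0.39), Trim25 (−0.28), Trim30a (−0.45) and Lgals3bp (−0.37); Oas1a turned to −0.081 (SE 0.059) and lost its call. Members lower in KO1 than in WT at 6 h were 3 with DESeq2 and 3 with no filter on low counts; members higher in KO1 than in WT at 0 h were 5 with only the libraries compared; the more positive late change against KO1 was 1 with DESeq2. Leaving out each library in turn gave 4 to 6 members higher in KO1 than in WT at 0 h, 3 to 6 at 3 h and 8 to 11 at 6 h, 3 to 5 lower at 6 h, and 0 to 4 more positive and 7 to 14 more negative late changes against KO1. The cause of these moves was not tested. With 2 libraries a group, low members such as Rsad2, Ifi44 and Ifit3 are limited by depth.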
